A study of Mus musculus with 27 samples.

Results

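Glycolysis and the transcriptional response to low oxygen were followed through 35 mouse genes across tumour-bearing and wild-type (WT) lung. The genes were chosen by name from a list of glucose transporters, glycolytic enzymes, pyruvate and lactate genes and hypoxia-response genes, and all 35 were found among the 16024 rows of the expression table. They comprised 14 genes of glucose uptake and upper glycolysis, 7 of lower glycolysis, 6 that set the fate of pyruvate and lactate, and 8 of the hypoxia response.

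RNA had been sequenced from 27 libraries of perfused, dissociated lungs of C57BL/6 mice, in 10 groups. Tumour lungs carried HKP1, a lung cancer cell line grown in culture and injected through the tail vein, and were taken between day 20 and day 25 of tumour growth, whereas the controls were WT lungs of the same strain. The 5 preparations were macrophages (CD11c+CD11b+ from tumour lung, n = 3; CD11c+CD11b- from WT lung, n = 2), CD11b+Ly6C+ monocytes (n = 2 and 2), CD11b+Ly6G+ neutrophils (n = 3 and 3), Epcam+CD11b-CD11c- epithelial cells (n = 3 and 3) and unsorted total lung cells (n = 3 and 3). The macrophage gates differ in CD11b, so that tumour and gate cannot be told apart there, and the Epcam+ gate of a tumour lung can hold cells of the injected line as well as lung epithelium. Whether libraries of a group stem from different mice is not stated in the labels; the tests therefore rest on the spread between libraries, which may be technical. Libraries are called by the number in their titles, which runs on from one preparation to the next.

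Glycolysis breaks glucose down to pyruvate in the cytosol. Under low oxygen, or in cells that ferment glucose in the presence of oxygen, pyruvate is reduced to lactate and exported. The hypoxia-inducible factors HIF-1α (Hif1a) and HIF-2α (Epas1) are hydroxylated by the EGLN prolyl hydroxylases when oxygen is present and are then destroyed; when stabilised they bind a short core motif in DNA and raise transcription of glucose transporters, most glycolytic enzymes, Pdk1, Bnip3, Car9, Adm, Ndrg1, Ankrd37 and Egln3. Neutrophils have few mitochondria and live largely from glycolysis, whereas alveolar macrophages and alveolar epithelium use more oxidative metabolism.

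Because many of these genes, though not all, are known to answer to HIF, the 250 bases before the members' transcription starts were searched. The core motif was sought in its forms ACGTG and GCGTG, on both strands. RefSeq promoters (GRCm38.p6) were matched for 33 members, with 46 starts in all; Slc2a3 and Ndrg1 had no entry. ACGTG or GCGTG was present before 38 of the 46 starts (82.6%), against 50.2% of the 15057 starts of genes in the expression table and 38.6% of all 32851 starts. These shares are per start, and some windows of 1 gene overlap (Eno1, Aldoa, Pfkm); per gene, 30 of 33 members (90.9%) held a match before at least 1 start, against 55.2% of genes in the expression table. ACGTG alone was present before 45.7% of member starts and 19.6% of table starts, and GCGTG before 54.3% and 39.6%. The palindrome CACGTG, which contains ACGTG on both strands and is also the E-box read by MYC and USF proteins, was present before 13% and 7.51%. Mean GC content of these windows was 60.2% for members and 58.4% for genes of the table. A match is a description of the letters and not a bound site. The upstream windows of 5 members that held a match are printed. Egln3 and Hk2 rose most among the members in tumour neutrophils, and Adm fell there. Pgk1 and Pgam1 rose in macrophages, epithelial cells and total lung cells. Tpi1, Eno2 and Gpi1 held no match, and each was called higher in macrophages, Tpi1 also in neutrophils, epithelial cells and total lung cells. Whether a match goes with a change was not tested. Capitals mark ACGTG or GCGTG on either strand (CACGT and CACGC on the printed strand), and each run ends at the base before the start.
Egln3 (chr12:54203875-54204124, minus strand): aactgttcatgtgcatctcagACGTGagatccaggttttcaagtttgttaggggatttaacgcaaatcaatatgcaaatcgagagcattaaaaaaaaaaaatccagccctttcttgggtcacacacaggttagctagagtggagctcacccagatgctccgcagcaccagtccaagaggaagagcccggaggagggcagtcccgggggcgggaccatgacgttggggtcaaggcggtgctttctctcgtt
Hk2 (chr6:82774455-82774704, minus strand): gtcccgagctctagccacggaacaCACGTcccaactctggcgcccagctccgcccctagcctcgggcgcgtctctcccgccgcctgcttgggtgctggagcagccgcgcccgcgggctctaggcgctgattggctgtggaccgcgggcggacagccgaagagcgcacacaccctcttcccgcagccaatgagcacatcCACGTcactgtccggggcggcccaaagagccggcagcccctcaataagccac
Adm (chr7:110627407-110627656, plus strand): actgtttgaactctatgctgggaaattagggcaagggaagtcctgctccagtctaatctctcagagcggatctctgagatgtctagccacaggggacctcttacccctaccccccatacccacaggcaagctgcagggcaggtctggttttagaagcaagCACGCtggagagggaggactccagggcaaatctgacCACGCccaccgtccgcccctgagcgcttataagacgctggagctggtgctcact
Pgk1 (chrX:106186850-106187099, plus strand): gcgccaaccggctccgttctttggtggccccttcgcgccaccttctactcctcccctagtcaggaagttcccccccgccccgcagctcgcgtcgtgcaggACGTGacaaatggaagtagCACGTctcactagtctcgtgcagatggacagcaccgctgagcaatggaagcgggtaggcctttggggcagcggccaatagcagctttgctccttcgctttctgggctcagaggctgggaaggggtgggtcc
Pgam1 (chr19:41911621-41911870, plus strand): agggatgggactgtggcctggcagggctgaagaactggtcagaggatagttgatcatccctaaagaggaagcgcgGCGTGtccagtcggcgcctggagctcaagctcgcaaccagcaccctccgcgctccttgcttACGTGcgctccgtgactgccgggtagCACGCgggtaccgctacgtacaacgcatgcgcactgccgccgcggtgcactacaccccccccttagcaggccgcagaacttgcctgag
Pgk1 and Hk2 each held 2 copies of ACGTG and none of GCGTG, Adm held 2 of GCGTG only, Pgam1 held 1 and 2, and Egln3 held a single ACGTG.

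The deposited values were FPKM, which are scaled to transcript length, so that levels of different genes can be set side by side. Between 8560 and 11420 genes reached 1 FPKM in a library, and replicates of a group correlated at r = 0.964 to 0.996 on the log2 scale. The spacing of the lowest values gave a rough relative depth for 25 of the 27 libraries, from 0.835 to 1.58 times that of tumour macrophage 1. Sorted neutrophils had summed levels of 9 neutrophil markers, without S100a9, of 11864 to 13536 FPKM in tumour and 28403 to 30754 in WT libraries, and sorted epithelial cells had epithelial marker sums of 1873 to 3200 and 1122 to 1202. Some abundant markers were listed at exactly 0 in a whole group (S100a9 in WT neutrophils, Apoe in tumour macrophages, Sftpb and Sftpc in both epithelial groups), which can be failed estimates; no member was at 0 in every library of a group. No value of Gapdh, Pgk1, Eno1, Ldha, Pgam1 or Aldoa can be fully separated from that of copies annotated under its name. The handling of reads that map to several places is not given in the sources used here. Likeness of the copies was not measured, and copies of members under other names were not listed. The library kit does not mark strand, and the exons of 7 members (Hk3, Pfkm, Pfkp, Aldoa, Tpi1, Gapdh and Ankrd37) overlap a protein-coding gene on the opposite strand. Those of Hif1a overlap a protein-coding gene on the same strand (Gm49321), and Aldoa is annotated under separate gene entries.

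**Figure D1:**
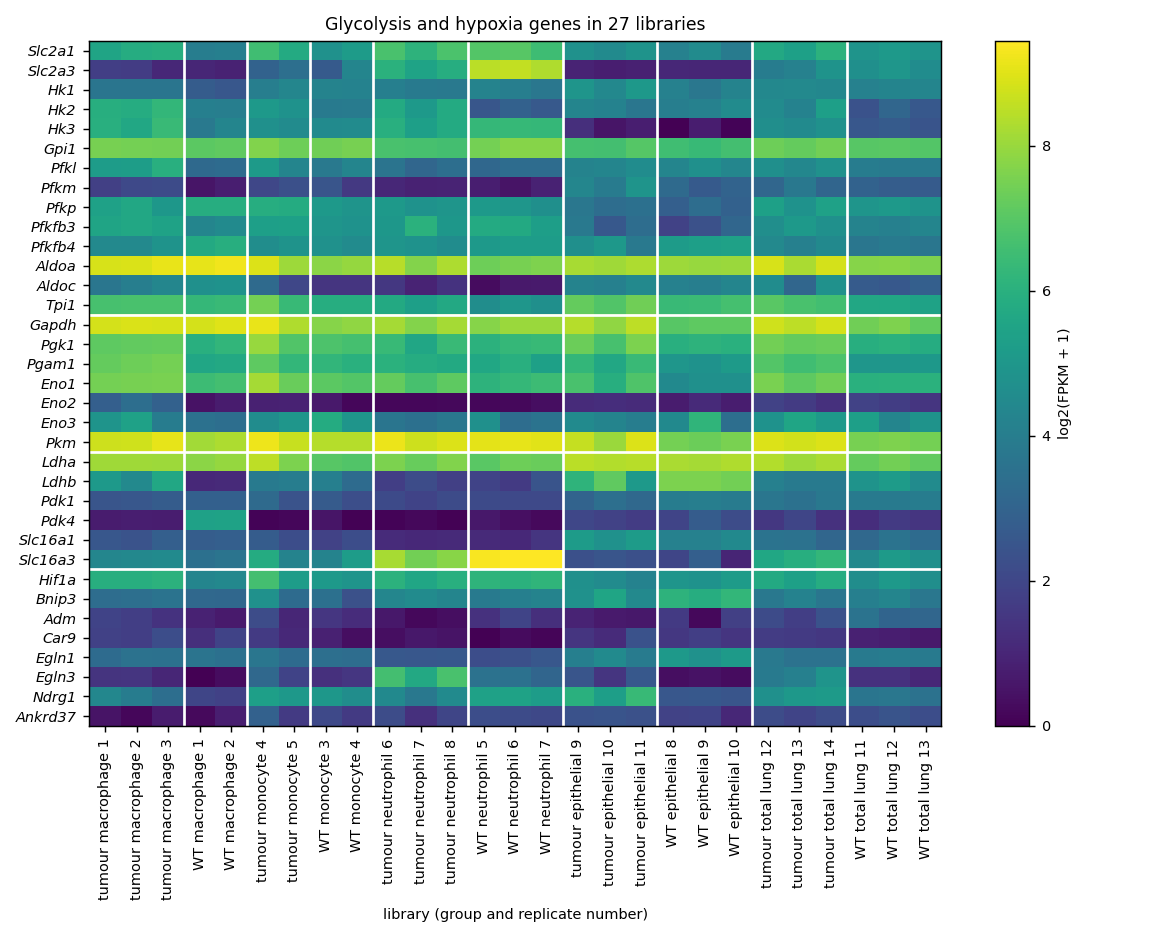
Level of each of the 35 genes (rows, ordered by role from uptake to hypoxia response) in each of the 27 libraries (columns, by group and library number), as log2(FPKM + 1) by colour. Aldoa, Gapdh, Pkm and Ldha are bright in every column, Slc2a3 and Slc16a3 are brightest in WT neutrophils, Ldhb in WT epithelial cells, and Pdk4 stands out in the 2 WT macrophage libraries.

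In WT lung the sorted populations carried different transporters and isozymes. WT neutrophils had Slc2a3 (GLUT3, a high-affinity glucose transporter; chromosome 6, 122727809 to 122801640 of GRCm38) at 356, 383 and 321 FPKM, where WT macrophages had 1.02 and 0.858 and WT epithelial cells 1.06, 1.01 and 1.03. Slc16a3 (MCT4, which exports lactate; chromosome 11, 120948480 to 120960868) stood at 648, 683 and 697 FPKM in WT neutrophils, 10.2 and 11.4 in WT macrophages and 2.94, 6.24 and 0.993 in WT epithelial cells. The neutrophil libraries lay far above the others for both genes, with no overlap. Hk3, the hexokinase of myeloid cells, was at 78.0, 80.0 and 76.6 FPKM in WT neutrophils and 13 and 18.6 in WT macrophages, and at 0, 0.698 and 0.0620 in WT epithelial cells. WT macrophages were highest of all groups for Pdk4, a kinase that shuts pyruvate dehydrogenase (chromosome 6, 5483351 to 5496309), at 41.5 and 42.3 FPKM. No other group averaged above 4.03 FPKM for it. WT epithelial cells were highest for Ldhb, the lactate dehydrogenase subunit that favours pyruvate formation (chromosome 6, 142490249 to 142507957), at 189, 189 and 174 FPKM, against 1.14 and 1.20 in WT macrophages and 2.69, 2.04 and 4.49 in WT neutrophils.

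By limma, 15 members were higher and 13 lower in WT neutrophils than in WT macrophages, of 33 tested, where 22.6% and 61.2% of all genes tested were called higher and lower (83.8% in all; 2317 and 6273 genes, against 3626 and 4435 after upper-quartile scaling and 3674 and 4386 after quantile normalization). The median of all genes tested was -0.81 on the log2 scale in this comparison and -0.18 after upper-quartile scaling, under which 20 members were higher and 8 lower. Relative to that shift the members were mostly above: their median was 0.13. The transporters gave Slc2a3 (log2 change 7.51, SE 0.11, adjusted p = 1.46e-08), Slc16a3 (5.85) and Slc2a1, the basal glucose transporter GLUT1 (2.75). The hypoxia-response genes Ndrg1 (3.45), Egln3 (3.24), Hif1a (1.77), Ankrd37 (1.62), Bnip3 (0.88) and Adm (0.72) were higher in neutrophils, and Car9 (-1.45) and Egln1 (-1.19) were lower. The call of Adm was lost without WT macrophage 1 or 2 (adjusted p = 0.0511 and 0.122) and that of Ldhb (0.86) without WT macrophage 1 (0.0543). Hk1 (1.33), Hk3 (2.26), Gpi1 (0.54), Pfkfb3 (1.20) and Pkm (0.86) were also higher. The lower members were Pdk4 (-5.02), Aldoc (-4.23), Aldoa (-1.68), Slc16a1 (-1.59), Tpi1 (-1.58), Hk2 (-1.37), Gapdh (-1.0) and Pfkp (-0.97), together with Pdk1, Ldha and Pfkfb4. The last 3 turned to the other sign under quantile normalization (Pdk1, 0.16) or upper-quartile scaling (Ldha, 0.11; Pfkfb4, 0.12). Upper-quartile scaling also ended the calls of Gapdh (-0.23, adjusted p = 0.128) and Pfkp (-0.22, 0.164), and quantile normalization those of Egln1 (-0.28, 0.105) and Gpi1 (0.27, 0.0599). In the same comparison 27 of 28 tested genes of pyruvate entry and the TCA cycle were lower in neutrophils and 1 was higher, with a median of -1.45; Mdh1, a malate dehydrogenase, had 7.41 ± 1.29 against 75.1 ± 7.15 FPKM, log2 change -3.19.

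WT epithelial cells differed from WT macrophages in 12 members called higher and 13 lower, of 33 tested, where 41.4% and 22.7% of all genes tested were called (64.1% in all; 4771 and 2617 genes, against 4027 and 3366 after upper-quartile scaling and 3394 and 3513 after quantile normalization). The median of all genes tested was 0.29 here and -0.03 after quantile normalization, under which 10 members were higher and 15 lower. Ldhb (log2 change 6.41, SE 0.11, adjusted p = 8.86e-07), Bnip3, a mitophagy receptor (2.91), the muscle-type phosphofructokinase Pfkm (2.32), Slc16a1, the lactate carrier MCT1 (1.44), Egln1, the main oxygen sensor among the prolyl hydroxylases (1.44), Hk1 (1.36), Pfkl (1.18) and Pdk1 (1.09) were higher in epithelial cells. Ankrd37 (1.09), Ndrg1 (0.67), Hif1a (0.62) and Ldha (0.35) were also called, but each lost its call without WT macrophage 1, at adjusted p = 0.221, 0.0773, 0.0775 and 0.147. Hk3 (-3.77), Pdk4 (-3.13), Pfkp (-2.82), Pfkfb3 (-1.97), Eno1 (-1.90), Gapdh (-1.85), Slc16a3 (-1.61), Aldoa (-1.15), Pkm (-0.75), Pgam1 (-0.67), Aldoc (-0.61), Gpi1 (-0.60) and Pfkfb4 (-0.52) were lower. Slc16a3 missed the threshold without WT macrophage 1 or 2 or WT epithelial 8 (adjusted p = 0.0939, 0.117 and 0.0701), and without WT macrophage 2 so did Ndrg1 (0.147), Ankrd37 (0.0706), Aldoc (0.0692) and Pfkfb4 (0.0995). Ankrd37 also missed it without WT epithelial 8 (0.0744). Quantile normalization ended the calls of Ankrd37 (0.35, 0.41) and Ndrg1 (0.032, 0.883), and upper-quartile scaling that of Ldha (0.11, 0.282). Epas1, which encodes HIF-2α and is no member, was at 232 ± 50.5 against 22.4 ± 3.15 FPKM, log2 change 3.30.

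Macrophages from tumour lung were compared with those from WT lung across 3 tumour and 2 WT libraries, and most members were higher in tumour macrophages, with Ldhb, Eno2, Pfkl and Ndrg1 in front. Of 34 members tested, 21 were higher and 3 lower, where 20.3% and 17.7% of all 10119 genes tested were called higher and lower. The median log2 change of the members was 0.88, against 0.00 for all genes tested. The groups were uptake and upper glycolysis (9 higher and 2 lower of 14 tested), lower glycolysis (6 higher and 0 lower of 7 tested), pyruvate and lactate fate (2 higher and 1 lower of 6 tested) and the hypoxia response (4 higher and 0 lower of 7 tested). The 17 core enzymes from hexokinase to pyruvate kinase summed to 2492 ± 161 FPKM in tumour and 1920 ± 145 in WT macrophages.

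Among the uptake genes, Slc2a1 was at 45.1, 56.1 and 59.9 FPKM in tumour and 15.2 and 16.1 in WT macrophages (log2 change 1.71, SE 0.14, adjusted p = 0.000186). The tumour libraries lay above both WT libraries. Slc2a3 was at 2.34, 2.23 and 1.05 against 1.02 and 0.858 FPKM and was not called (log2 change 0.53, SE 0.24, adjusted p = 0.131). The hexokinases, which trap glucose in the cell, rose: Hk2, the inducible form that binds mitochondria (chromosome 6, 82725025 to 82774454), from 15.9 and 15.4 to 59.0, 56.3 and 74.9 FPKM (log2 change 1.94, SE 0.14, adjusted p = 0.00011), Hk3 by 1.95 and Hk1 by 1.0 on the log2 scale. Phosphofructokinase, the committed step, changed unevenly. Pfkl, the liver-type subunit, was at 36.3, 37.7 and 61.3 FPKM in tumour and 8.38 and 8.87 in WT macrophages (log2 change 2.22, SE 0.23, adjusted p = 0.000505), and Pfkm rose by 1.33, whereas the platelet-type subunit Pfkp was at 41.8, 49.3 and 30.7 against 57.8 and 57.6 FPKM (log2 change -0.52, SE 0.19, adjusted p = 0.0698). The bifunctional enzymes that make or remove fructose 2,6-bisphosphate moved in opposite directions, with Pfkfb3 higher (1.13) and Pfkfb4 lower (-1.24). Aldoc was lower (-0.75), and Gpi1 (0.36) and Tpi1 (0.37) were higher by small amounts.

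In lower glycolysis Pgam1, the phosphoglycerate mutase, was at 149, 162 and 179 FPKM in tumour and 47.7 and 51.2 in WT macrophages (log2 change 1.70, SE 0.11, adjusted p = 7.06e-05). Pgk1 (1.07), Eno1 (0.96), the neuronal enolase Eno2 (2.47), the muscle enolase Eno3 (1.31) and the pyruvate kinase gene Pkm (0.67) were also higher. Gapdh, at 462, 482 and 463 against 454 and 511 FPKM, was not called (log2 change -0.039, SE 0.11, adjusted p = 0.81). Pkm values do not separate its M1 and M2 splice forms.

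Pyruvate and lactate genes held the largest changes of this comparison among the members. Ldhb was at 32.6, 21.1 and 50.2 FPKM in tumour and 1.14 and 1.20 in WT macrophages (log2 change 3.95, SE 0.32, adjusted p = 0.000187). Every tumour library was far above both WT libraries, although the tumour libraries differed among themselves. Ldha, the subunit that favours lactate, was at 269.9, 272 and 266 against 225 and 249 FPKM and was not called (log2 change 0.19, SE 0.10, adjusted p = 0.185). Pdk4 was at 0.660, 0.721 and 0.681 FPKM in tumour and 41.5 and 42.3 in WT macrophages (log2 change -4.67, SE 0.12, adjusted p = 2.61e-06). Slc16a3 was higher (0.86), and Slc16a1 and Pdk1 were not called (-0.20 and -0.31). Summed markers of epithelial cells were lower in the same tumour libraries (41.1 to 50.5 against 434 to 468 FPKM), as were those of alveolar type II cells (73.9 to 238 against 592 to 796). Summed markers were higher for monocyte-derived macrophages (5277 to 7232 against 865 to 957), neutrophils (190.1 to 556 against 54.0 to 80.5), dendritic cells (102 to 440.1 against 62.2 to 71.2), platelets (72.7 to 83.0 against 4.46 to 5.82), monocytes (432 to 522 against 163 to 204) and T cells (37.0 to 55.3 against 13.9 to 15.5), and lower for endothelial cells (6.53 to 12.4 against 62.8 to 68.2). Summed alveolar macrophage markers were higher in tumour macrophages too (1858 to 2370 against 1373 to 1510), and cell cycle sums were lower (201 to 293 against 324 to 338). The part of these marker lists in the macrophage results was not tested. Across tumour macrophage 1, 2 and 3 the dendritic sums were 298, 440.1 and 102 FPKM. The monocyte-derived macrophage sums were 6254, 5277 and 7232 FPKM, in the library order of Ldhb, which was highest in tumour macrophage 3.

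Of the hypoxia-response genes, Hif1a was at 59.6, 60.3 and 66.9 FPKM in tumour and 18.6 and 20.1 in WT macrophages (log2 change 1.64, SE 0.10, adjusted p = 5.65e-05). Ndrg1, a stress-response gene induced by HIF (chromosome 15, 66929318 to 66969640), was at 19.6, 14.7 and 9.67 against 2.97 and 2.51 FPKM (log2 change 2.02, SE 0.27, adjusted p = 0.00147). Adm, which encodes the vasodilator adrenomedullin (0.89), and Egln3, the prolyl hydroxylase that is itself a HIF target (1.14), were called but stayed under 3 FPKM in each macrophage library. Bnip3, Car9 and Egln1 were not called, with changes of 0.30, 0.35 and -0.092, and Ankrd37 did not reach the level for testing. The 10 tested members that were not called had log2 changes from -0.52 (Pfkp) to 0.53 (Slc2a3). Calls were lost without WT macrophage 1 for Adm, Aldoc, Egln3, Eno3, Gpi1, Pkm and Tpi1 (adjusted p from 0.07 to 0.198) and without WT macrophage 2 for the same genes except Egln3 (0.0616 to 0.15). Without tumour macrophage 1, Eno3, Gpi1 and Tpi1 missed the threshold (0.0561 to 0.0825), and without tumour macrophage 2, Gpi1 and Tpi1 (0.0527 and 0.0606). The members called lower numbered 6 without tumour macrophage 3 and 1 without either WT library. All genes called higher and lower were 1105 and 673 without WT macrophage 1, and 1160 and 685 without WT macrophage 2.

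Other genes of the pathway moved less uniformly in macrophages. Of further known HIF targets 7 were higher and 4 lower of 28 tested, a share close to the 37.9% of all genes called in this comparison. The higher ones included Vegfa, the endothelial growth factor (168 ± 11.1 against 7.99 ± 0.348 FPKM, log2 change 4.23), Pgf, placental growth factor (11.4 ± 3.73 against 1.14 ± 1.0 FPKM, log2 change 2.57), and Hilpda, a lipid droplet protein (282 ± 23.3 against 50.5 ± 1.22 FPKM, log2 change 2.45). Of HIF pathway components 4 were higher and 1 lower of 12 tested; the lower gene was Epas1 (11.2 ± 2.75 against 22.4 ± 3.15 FPKM, log2 change -0.96). Of genes for pyruvate entry and the TCA cycle 4 were higher and 7 lower of 29, and the 2 subunits of the mitochondrial pyruvate carrier went opposite ways, Mpc1 at 172 ± 8.30 against 85.0 ± 3.55 FPKM, log2 change 1.01 and Mpc2 at 30.3 ± 5.08 against 73.2 ± 5.37 FPKM, log2 change -1.26. Among other sugar genes, 3 were higher and 2 lower of 18, including Gpd1, a glycerol phosphate dehydrogenase (0.909 ± 0.141 against 8.58 ± 1.05 FPKM, log2 change -2.33), and Slc2a6, a hexose transporter of myeloid cells (22.2 ± 8.07 against 4.75 ± 0.191 FPKM, log2 change 1.95). The pentose phosphate pathway gave 1 higher and 3 lower of 10 tested, and the other lactate genes gave 1 higher and 1 lower of 4 tested.

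**Figure D2:**
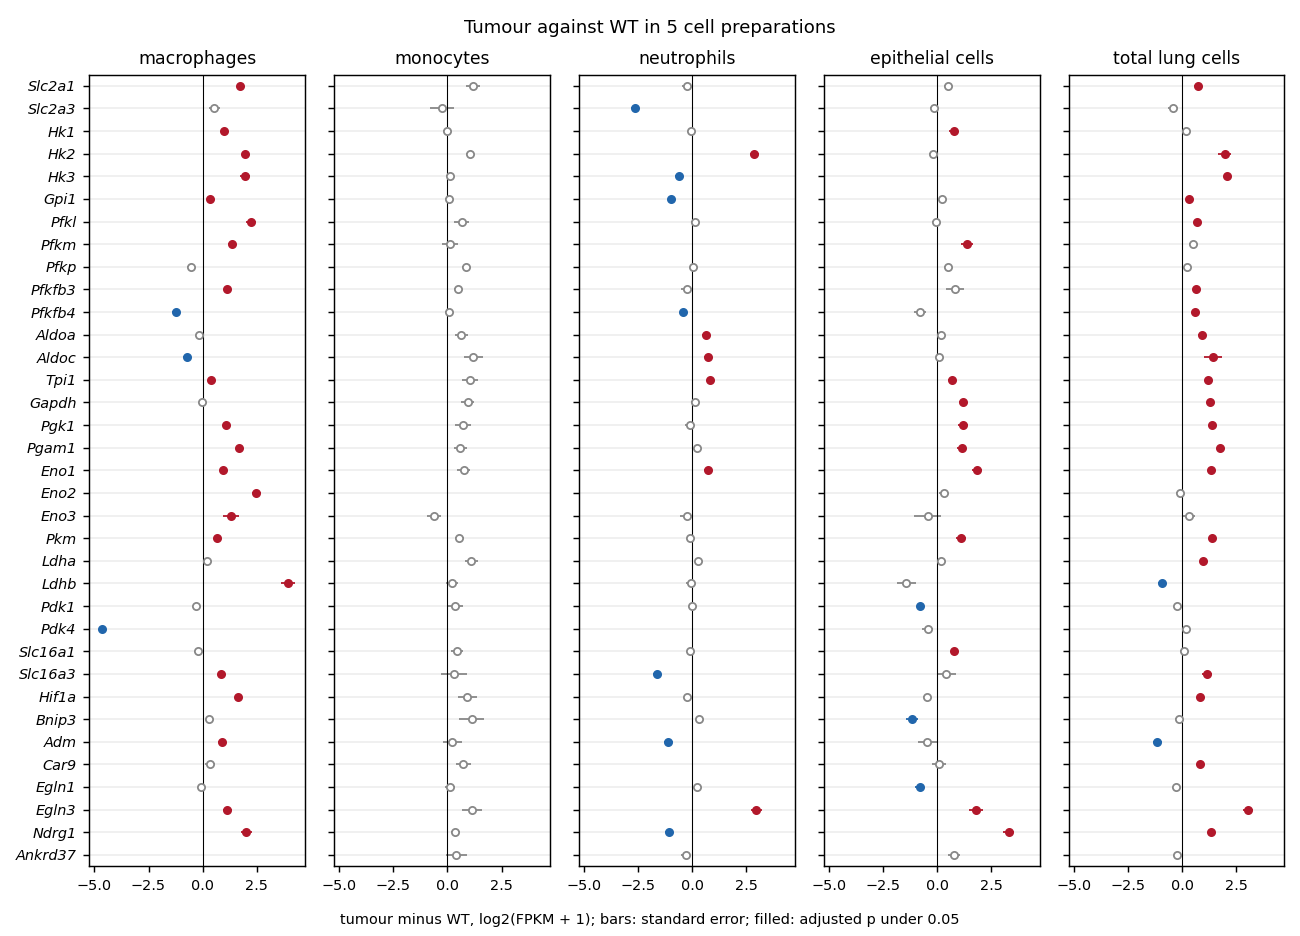
Tumour minus WT change of each of the 35 genes in the 5 preparations, on the log2(FPKM + 1) scale, with the standard error as a bar; filled red points were called higher and filled blue points lower at an adjusted p under 0.05, and open points were not called. Macrophages and total lung cells each have 21 filled red points, neutrophils have 6 red and 7 blue, epithelial cells 11 and 3, and monocytes none.

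Neutrophils from tumour lung showed no common direction: the transcripts of the glucose transporter Slc2a3 and the lactate exporter Slc16a3 were far lower, while those of Hk2 and Egln3 were far higher. Of 31 members tested, 6 were higher and 7 lower, where 33.3% and 25.8% of all 9349 genes tested were called higher and lower, 59.1% in all. After upper-quartile scaling, 5 members were higher and 8 lower. All genes called higher and lower were then 2501 and 2848, against 3115 and 2409 in the main fit. The median log2 change was -0.08 for the members and 0.11 for all genes tested. The 17 core enzymes summed to 1615 ± 271 FPKM in tumour and 1534 ± 70.8 in WT neutrophils, a difference within the spread of the tumour libraries.

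Slc2a3 was at 64.8, 43.7 and 57.6 FPKM in tumour and 356, 383 and 321 in WT neutrophils (log2 change -2.67, SE 0.16, adjusted p = 7.56e-06). The groups did not overlap. Slc2a1, at 105, 68.8 and 109 against 119.8, 128 and 89.5 FPKM, was not called (log2 change -0.26, SE 0.20, adjusted p = 0.279). Hk2 was at 53.6, 33.6 and 54.0 FPKM in tumour and 4.72, 6.59 and 5.20 in WT neutrophils (log2 change 2.86, SE 0.20, adjusted p = 1.52e-05), again with no overlap. Hk3 was at 61.0, 38.8 and 53.2 against 78.0, 80.0 and 76.6 FPKM (log2 change -0.63, SE 0.16, adjusted p = 0.00833), and Hk1 was not called (-0.069). Gpi1, which turns glucose 6-phosphate into fructose 6-phosphate, was at 105, 102 and 96.5 against 177, 210.3 and 213 FPKM (log2 change -0.97, SE 0.12, adjusted p = 0.000201), and Pfkfb4 was lower (-0.41). Further down, Tpi1 was higher (log2 change 0.82, SE 0.14, adjusted p = 0.00144), as were the aldolases Aldoa (0.64) and Aldoc (0.74); Aldoc stayed under 2 FPKM. No phosphofructokinase subunit that was tested was called.

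Among the 6 tested genes of lower glycolysis only Eno1 was called, at 148, 104 and 136 FPKM in tumour and 67.8, 77.0 and 88.9 in WT neutrophils (log2 change 0.72, SE 0.16, adjusted p = 0.00456). Gapdh, Pgk1, Pgam1, Eno3 and Pkm changed by 0.10, -0.12, 0.22, -0.26 and -0.11 and were not called. Of the pyruvate and lactate genes only Slc16a3 was called, at 293, 171 and 215 FPKM in tumour and 648, 683 and 697 in WT neutrophils (log2 change -1.61, SE 0.18, adjusted p = 0.000166). Tumour neutrophils lay below all WT neutrophil libraries for it and above every library of the other preparations. Ldha (0.25), Ldhb (-0.077), Pdk1 (-0.029) and Slc16a1 (-0.11) were not called.

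The hypoxia-response genes split. Egln3 (chromosome 12, 54178981 to 54203860) was at 97.2, 50.7 and 106 FPKM in tumour and 10.9, 10.6 and 7.38 in WT neutrophils (log2 change 2.96, SE 0.27, adjusted p = 5.6e-05), and tumour neutrophils were its highest group. Ndrg1 was at 21.1, 12.7 and 22.2 against 40.9, 42.2 and 36.1 FPKM (log2 change -1.08, SE 0.19, adjusted p = 0.00155) and Adm at 0.539, 0.161 and 0.288 against 1.53, 2.80 and 1.40 (log2 change -1.11, SE 0.20, adjusted p = 0.00168), both lower in tumour without overlap. Hif1a (-0.25), Bnip3 (0.33), Egln1 (0.22) and Ankrd37 (-0.31) were not called. The 18 tested members that were not called had log2 changes from -0.31 (Ankrd37) to 0.33 (Bnip3). For Hk2 and Egln3, tumour neutrophil 7 was the lowest of the 3 tumour libraries. Aldoa lost its call without tumour neutrophil 6 or 8 or WT neutrophil 5 (adjusted p = 0.0617, 0.064 and 0.066) and after upper-quartile scaling (0.0529), and Pfkfb4 lost its call without tumour neutrophil 8 (0.0637).

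Beside these values, the WT neutrophil libraries carried summed alveolar type II markers of 537 to 2160 FPKM and B cell markers of 168 to 244, against 17.7 to 49.6 and 7.90 to 57.6 in tumour neutrophils; club cell sums were 183 to 1185 and 6.61 to 17.6, and monocyte sums 361 to 463 and 139.6 to 199.7. The neutrophil sum without S100a9, which was listed at 0 in WT neutrophils, was 28403 to 30754 FPKM in WT and 11864 to 13536 in tumour neutrophils. Slc2a3 and Slc16a3 were under 7 FPKM in each WT epithelial library. The part of other cells in the neutrophil results was not tested.

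Other genes of the pathway in tumour neutrophils included Slc2a6 (129 ± 27 against 386 ± 26.9 FPKM, log2 change -1.59), the pentose phosphate genes Taldo1 (292 ± 83.3 against 834 ± 70.4 FPKM, log2 change -1.55) and G6pdx (15.7 ± 2.33 against 30.3 ± 4.14 FPKM, log2 change -0.91), and the pyruvate carrier subunit Mpc1 (56.6 ± 4.55 against 150.2 ± 9.40 FPKM, log2 change -1.39), all lower. The genes of pyruvate entry and the TCA cycle gave 11 higher and 5 lower of 26 tested, a share close to the 59.1% of all genes called, against which the other lists here are to be read too. Their median was 0.34, with Mdh2, the mitochondrial malate dehydrogenase, at 163 ± 21.8 against 88.1 ± 11.3 FPKM, log2 change 0.88 and Idh3b, an isocitrate dehydrogenase subunit, at 22.5 ± 2.49 against 10.2 ± 1.45 FPKM, log2 change 1.06. Further HIF targets gave 7 higher and 9 lower of 27 tested, with Mif (50.1 ± 8.85 against 14.6 ± 2.42 FPKM, log2 change 1.71) and Bhlhe40 (502 ± 20.8 against 219 ± 10.9 FPKM, log2 change 1.20) among the higher. HIF pathway components gave 2 higher and 3 lower of 12 tested, Epas1 being lower (4.51 ± 2.44 against 17.3 ± 4.76 FPKM, log2 change -1.79). Endothelial marker sums were lower in these libraries too (13.1 to 24.8 against 77.2 to 98.7), and their part in the change of Epas1 was not tested. Remaining sugar genes gave 5 higher and 3 lower of 15 tested, the pentose phosphate pathway 3 higher and 3 lower of 10 tested and the lactate genes 1 higher and 1 lower of 3 tested.

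**Figure D3:**
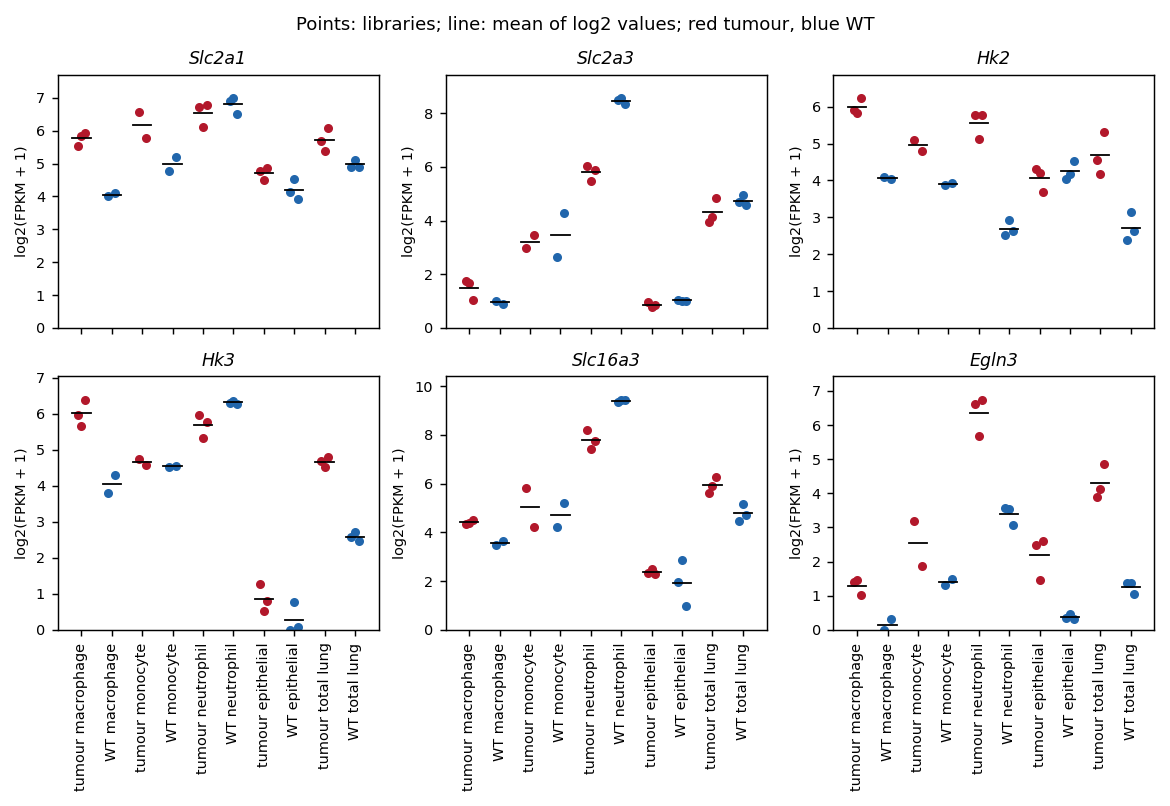
Levels of 6 genes in the 10 groups as log2(FPKM + 1); points are libraries, red for tumour and blue for WT, and the line is the mean of the log2 values. Slc2a3 and Slc16a3 are highest in WT neutrophils and lower in all 3 tumour neutrophil libraries, and Hk2 and Egln3 show the opposite order in neutrophils.

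The tumour effect differed between macrophages and neutrophils for 24 of 35 members by the interaction term, 18 more positive and 6 more negative in macrophages, where 23.9% and 28.8% of all genes tested were called, 52.7% in all. The gate of the macrophages enters this difference. Called higher in macrophages and lower in neutrophils were 5 members, Hk3, Gpi1, Slc16a3, Adm and Ndrg1, and Aldoc was called the opposite way. The interaction term was called for all 6. The share of all genes with opposite calls in the 2 populations is not given here. The count is therefore not read as a result about the members. Without either WT macrophage library Gpi1, Adm and Aldoc lost their macrophage calls (adjusted p from 0.07 to 0.198), and Gpi1 also without tumour macrophage 1 or 2 (0.0796 and 0.0606). In a fit of all 10 groups Adm, Aldoc and Slc16a3 lost theirs (0.0651, 0.113 and 0.117), and Gpi1 did under quantile normalization (0.0649). The neutrophil call of Aldoc was lost in the fit of all 10 groups (0.0557) and with the replicate block (0.112). The largest of these differences was that of Ndrg1 (difference 3.11, SE 0.35, adjusted p = 3.01e-05), followed by Hk3 (2.58) and Slc16a3 (2.47). Hk2, which rose in both populations, rose more in neutrophils by the interaction (difference -0.93, SE 0.27, adjusted p = 0.0144), but this call was lost with a pseudocount of 5 (0.0649) and under quantile normalization (0.118). For Egln3 (-1.82) the difference was -0.0051 at a pseudocount of 0.1 (adjusted p = 0.995); WT macrophages carried 0 and 0.238 FPKM.

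Epithelial cells of tumour lung carried more of the lower glycolytic enzymes and less of the genes Bnip3, Egln1 and Pdk1. Of 34 members tested, 11 were higher and 3 lower, where 14.9% and 8.89% of all 11823 genes tested were called. Lower glycolysis gave 5 higher and 0 lower of 7 tested, with a median log2 change of 1.12, uptake and upper glycolysis gave 3 higher and 0 lower of 13 tested, pyruvate and lactate fate 1 higher and 1 lower of 6 tested and the hypoxia response 2 higher and 2 lower of 8 tested. The median of all members was 0.27, against 0.01 for all genes tested. The 17 core enzymes summed to 1680 ± 344 FPKM in tumour and 986 ± 21.5 in WT epithelial cells.

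The main glucose transporter and the inducible hexokinase were not called: Slc2a1 was at 26.3, 21.7 and 28.1 FPKM in tumour and 16.7, 22.3 and 14.1 in WT epithelial cells (log2 change 0.51, SE 0.19, adjusted p = 0.089), and Hk2 at 18.8, 17.4 and 11.9 against 15.5, 16.9 and 22.3 (log2 change -0.18, SE 0.21, adjusted p = 0.547). Hk1 was higher (0.76), as were Pfkm, at 19.1, 14.3 and 28.3 against 8.71, 5.32 and 7.10 FPKM (log2 change 1.39, SE 0.27, adjusted p = 0.0169), and Tpi1 (0.66). Eno1 was at 105, 59.0 and 114 FPKM in tumour and 21.1, 25.7 and 26.1 in WT epithelial cells (log2 change 1.84, SE 0.25, adjusted p = 0.00687). Gapdh was at 336, 232 and 362 against 126, 135 and 137 FPKM (log2 change 1.20, SE 0.18, adjusted p = 0.00871). For both genes tumour epithelial 10 was the lowest tumour library but lay above all 3 WT libraries. Pgk1 (1.19), Pgam1 (1.12) and Pkm (1.08) were higher, with tumour epithelial 11 highest, 9 next and 10 lowest of the tumour libraries for each.

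Slc16a1 was higher in tumour epithelial cells, at 35.0, 26.5 and 35.6 against 16.6, 16.7 and 21.5 FPKM (log2 change 0.79, SE 0.17, adjusted p = 0.0214), whereas Ldha was not called (0.17). Pdk1, a kinase that inhibits pyruvate dehydrogenase and a textbook HIF target, was lower, at 7.14, 9.87 and 8.09 against 14.8, 15.6 and 14.2 FPKM (log2 change -0.77, SE 0.15, adjusted p = 0.0183). Ldhb was at 69.7, 139.6 and 32.4 FPKM in tumour and 189, 189 and 174 in WT epithelial cells; the groups did not overlap, the tumour libraries differed widely, and the gene was not called (log2 change -1.42, SE 0.46, adjusted p = 0.0618).

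Ndrg1 gave the largest change of a member here, from 4.98, 5.12 and 4.68 FPKM in WT to 62.4, 38.0 and 80.7 in tumour epithelial cells (log2 change 3.31, SE 0.26, adjusted p = 0.00143). Egln3 was at 4.58, 1.76 and 5.14 FPKM in tumour and 0.272, 0.379 and 0.256 in WT epithelial cells (log2 change 1.81, SE 0.33, adjusted p = 0.0141). Other hypoxia-response genes were lower: Bnip3 at 26.2, 45.9 and 20.8 against 68.6, 57.7 and 76.1 FPKM (log2 change -1.17, SE 0.28, adjusted p = 0.0281) and Egln1 at 16.0, 22.1 and 14.1 against 32.5, 26.4 and 34.3 (log2 change -0.82, SE 0.19, adjusted p = 0.0275). In each of these 2 genes tumour epithelial 10 was the tumour library nearest to WT. Hif1a (-0.47), Adm (-0.46), Car9 (0.086) and Ankrd37 (0.78) were not called. The 20 tested members that were not called had log2 changes from -1.42 (Ldhb) to 0.82 (Pfkfb3).

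Tumour epithelial 10 lay between the WT libraries and the other tumour libraries for many members, and its correlation with tumour epithelial 11 was the lowest of any replicate pair (r = 0.964). The summed alveolar type II markers, of which Sftpb and Sftpc were listed at 0 in both groups and Sftpa1 and Slc34a2 in WT, stood at 6613, 12492 and 2400 FPKM in tumour epithelial 9, 10 and 11, against 4701 to 6759 in WT. Alveolar type I markers stood at 999.6, 1351 and 630.3, against 1624 to 2136, and cell cycle genes at 297, 201 and 253, against 78.9 to 103. Monocyte markers, of which 4 of 6 reached a mean of 1 FPKM in tumour, stood at 672, 291 and 1050, against 38.7 to 51.2. This was the library order of Pgk1, Pgam1 and Pkm. Monocyte-derived macrophage markers stood at 449, 466 and 299.5, against 370 to 616, and neutrophil markers at 24.3, 8.40 and 25.4, against 1.42 to 48.1. Club cell markers stood at 1604, 2298 and 2369, against 2637 to 12998. Shares of lung epithelium and injected cells were not measured, and the part of these and of the marker sums in the results was not tested. Without tumour epithelial 10, 11 members were called higher and 5 lower, and 1795 of all genes were called lower, against 1051 with it. Without tumour epithelial 9 they were 3 and 0, and 386 and 104 of all genes were called higher and lower; Ndrg1, Eno1 and Gapdh passed the threshold, and the other 11 had adjusted p from 0.0683 to 0.147. Without tumour epithelial 11 the calls of Bnip3, Egln1, Hk1, Pdk1, Slc16a1 and Tpi1 were lost (0.0566 to 0.123). Without WT epithelial 8 the calls of Bnip3, Egln1, Egln3, Hk1, Pdk1, Pgam1, Pgk1, Pkm, Slc16a1 and Tpi1 were lost (0.0604 to 0.102), without WT epithelial 9 those of Bnip3, Hk1, Pkm, Slc16a1 and Tpi1 (0.0528 to 0.0886), and without WT epithelial 10 those of Bnip3, Egln1, Hk1, Pdk1, Pfkm, Pgk1, Pkm and Tpi1 (0.0518 to 0.0869). The genes called higher and lower were 715 and 286 without tumour epithelial 11, 499 and 129 without WT epithelial 8, 1111 and 524 without WT epithelial 9, and 755 and 180 without WT epithelial 10, against 1765 and 1051 with all libraries.

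**Figure D4:**
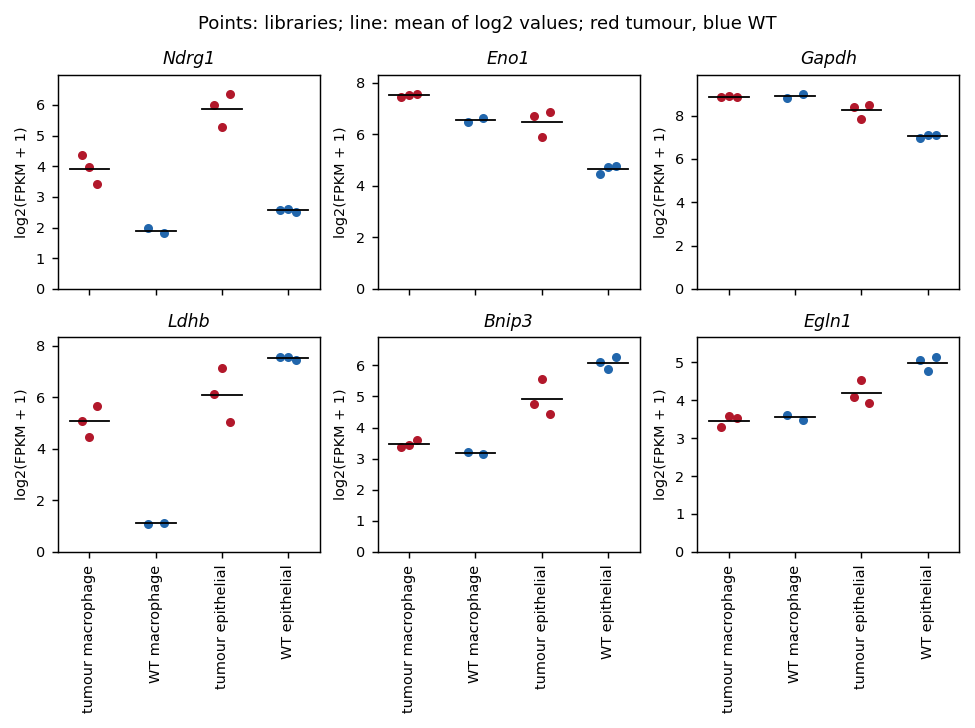
Levels of 6 genes in epithelial cells and macrophages as log2(FPKM + 1); points are libraries, red for tumour and blue for WT, and the line is the mean of the log2 values. In epithelial cells Ndrg1, Eno1 and Gapdh are higher in every tumour library than in any WT library, Ldhb, Bnip3 and Egln1 are lower, and Ldhb is higher in tumour macrophages.

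Among genes outside the 35, other isozymes were higher in tumour epithelial cells. Pklr, the liver and red cell pyruvate kinase, was at 16.0 ± 7.75 against 0.0498 ± 0.0365 FPKM, log2 change 3.91, and the muscle-type fructose bisphosphatase Fbp2 at 16.7 ± 9.22 against 2.53 ± 0.864 FPKM, log2 change 2.23. They belong to a list of other sugar genes of which 5 were higher and 1 lower of 23 tested, where 23.8% of all genes were called either way. Further HIF targets gave 8 higher and 2 lower of 35 tested, with Angptl4 (18.2 ± 11.3 against 3.75 ± 1.5 FPKM, log2 change 1.88) and Hilpda (47.5 ± 20.1 against 18.6 ± 5.0 FPKM, log2 change 1.24) higher. HIF pathway components gave 1 higher and 2 lower of 12 tested, with Epas1 at 93.5 ± 42.6 against 232 ± 50.5 FPKM, log2 change -1.38. Endothelial marker sums were 26.6 to 103 in tumour and 255 to 449 in WT epithelial libraries, and their part in the change of Epas1 was not tested. Pyruvate entry and the TCA cycle gave 2 higher and 2 lower of 29 tested, including a lower Pdk2 (15.8 ± 6.01 against 33.2 ± 4.39 FPKM, log2 change -1.07). The pentose phosphate pathway gave 1 higher and 1 lower of 10 tested and the lactate genes 2 higher and 0 lower of 5 tested.

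The tumour effect differed between epithelial cells and neutrophils for 18 of 35 members by the interaction term, 14 more positive and 4 more negative in epithelial cells, where 18.1% and 16.4% of all genes tested were called (2193 and 1992 genes, against 2594 and 1559 after upper-quartile scaling). Ndrg1 had the largest difference (difference 4.39, SE 0.35, adjusted p = 1.47e-05); it rose in epithelial cells and fell in neutrophils. Hk2 differed the other way (difference -3.05, SE 0.31, adjusted p = 6.58e-05). Bnip3 (-1.5), Egln1 (-1.03) and Pdk1 (-0.74) were more negative in epithelial cells, and Gapdh (1.09), Pgk1 (1.30), Pkm (1.19) and Eno1 (1.12) more positive.

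In unsorted total lung cells most members rose, Egln3, Hk3 and Hk2 by most. Of 35 members tested, 21 were higher and 2 lower, where 22.1% and 20.4% of all 11747 genes tested were called higher and lower, 42.5% in all. The median log2 change was 0.70 for the members and -0.01 for all genes tested. The 17 core enzymes summed to 2195 ± 254 FPKM in tumour and 1006 ± 52.9 in WT lung. In unsorted cells a change in the level of a gene cannot be told apart from a change in the share or RNA content of a cell type. Summed neutrophil markers were 3652 to 9178 FPKM in tumour and 1833 to 2711 in WT lung, those of monocyte-derived macrophages 3662 to 6384 and 521 to 761, those of epithelial cells 501 to 694 and 138 to 189, and those of endothelial cells 78.1 to 192 and 438 to 930.3. Their part in the results was not tested.

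Uptake and upper glycolysis gave 10 higher and 0 lower of 14 tested. Hk3 was at 24.7, 21.7 and 26.5 FPKM in tumour and 4.98, 5.61 and 4.50 in WT lung (log2 change 2.07, SE 0.12, adjusted p = 6.49e-05), and Hk2 at 22.6, 17.0 and 39.1 against 4.23, 7.79 and 5.13 (log2 change 1.97, SE 0.31, adjusted p = 0.00228). Aldoc (1.43), Tpi1 (1.20), Aldoa (0.93), Slc2a1 (0.74), Pfkl (0.70), Pfkfb3 (0.63) and Pfkfb4 (0.59) were also higher. Gpi1 was called higher (0.34) but turned to -0.016 under quantile normalization. In lower glycolysis Pgam1 was at 119.7, 92.5 and 107 against 29.8, 30.4 and 31.4 FPKM (log2 change 1.76, SE 0.11, adjusted p = 0.000102), and Pgk1 (1.37), Pkm (1.37), Eno1 (1.33) and Gapdh (1.30) rose without overlap of the groups, whereas Eno2 (-0.090) and Eno3 (0.33) were not called. Ldha rose (0.97), and so did Slc16a3 (1.15). Ldhb fell, at 16.3, 13.4 and 13.8 against 27.9, 35.6 and 22.6 FPKM (log2 change -0.92, SE 0.17, adjusted p = 0.00448).

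Egln3 had the largest change, at 13.8, 16.5 and 28.3 FPKM in tumour and 1.57, 1.57 and 1.07 in WT lung (log2 change 3.04, SE 0.25, adjusted p = 0.000214). Ndrg1 (1.32), Hif1a (0.85) and Car9, the cell-surface carbonic anhydrase that is widely used as a hypoxia marker (0.83), were higher. Car9 was at 2.24, 2.08 and 1.86 against 0.837, 0.744 and 0.577 FPKM, and this was the only preparation in which it was called. The 12 tested members that were not called had log2 changes from -0.43 (Slc2a3) to 0.51 (Pfkm). Adm was at 3.52, 2.38 and 4.26 FPKM in tumour and 11.1, 7.25 and 7.70 in WT lung (log2 change -1.15, SE 0.21, adjusted p = 0.00439). Among the marker sums that were lower in the same tumour libraries were endothelial, fibroblast (97.4 to 272 against 471 to 1360) and B cell sums (171 to 458 against 764 to 1375). NK cell and alveolar type I sums were lower too, and those of other cell types were higher, as given above. None of the sorted WT populations reached 3 FPKM for Adm in any library. The part of any cell type in the change of Adm was not tested. Aldoc lost its call without tumour total lung 12 or 14 or WT total lung 11 or 12 (adjusted p from 0.0659 to 0.0772), and Gpi1 without any of tumour total lung 12 or 14 or WT total lung 11, 12 or 13 (0.0634 to 0.108). In this comparison 42.5% of all genes were called, against which the counts of the further lists are to be read. Of further HIF targets 13 were higher and 8 lower of 33 tested, including Hmox1, heme oxygenase (177 ± 69.5 against 32.4 ± 6.39 FPKM, log2 change 2.36), and Angptl4 (23.4 ± 6.72 against 4.57 ± 0.743 FPKM, log2 change 2.10). HIF pathway components gave 3 higher and 6 lower of 12 tested, with Epas1 at 28.9 ± 9.14 against 151 ± 63.6 FPKM, log2 change -2.32. Other sugar genes gave 7 higher and 3 lower of 21 tested, the pentose phosphate pathway 5 higher and 1 lower of 10 tested, with Pgd at 130.1 ± 27.1 against 44.3 ± 3.90 FPKM, log2 change 1.51, pyruvate entry and the TCA cycle 6 higher and 3 lower of 29 tested, and the lactate genes 1 higher and 0 lower of 4 tested.

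In monocytes no member was called: 0% of the 10366 genes tested passed in either direction by limma, and 744 and 815 genes were higher and lower at an unadjusted p under 0.05, 10 members among those genes. The lowest adjusted p of a member was 0.182. The median log2 change of the members was 0.55, against about 0 for all genes tested. Tumour monocyte 4 stood above the other libraries for many members. Its Hif1a was at 96.4 FPKM, against 36.1 in tumour monocyte 5 and 32.9 and 28.9 in WT monocytes, its Pgk1 at 256 against 117 and 112 and 98.9, and its Slc16a3 at 55.7 against 17.6 and 17.6 and 36.3. Hk2 and Pfkp had the lowest p of the members, with both tumour libraries above both WT libraries: Hk2 was at 33.4 and 26.9 against 13.7 and 14.4 FPKM (log2 change 1.05, SE 0.19, adjusted p = 0.182), and Pfkp at 58.7 and 54.5 against 32.8 and 28.8 (log2 change 0.86, SE 0.17, adjusted p = 0.182). Without tumour monocyte 5, 5 members were called higher, with 161 and 149 of all genes called, and the lone tumour library was then assumed to vary like the WT libraries. WT monocyte 4 carried neutrophil markers at 2983 FPKM in sum, against 227 in WT monocyte 3 and 406 to 515 in tumour monocytes, and had the highest Slc2a3 of the monocyte libraries (5.31 and 18.5 FPKM in WT monocytes 3 and 4).

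Shares within a family, which need no scaling between libraries, showed which form each population used. In neutrophils Hk2 made up 41.6% ± 2.91 against 5.56% ± 0.881 of the summed hexokinase FPKM in tumour and WT libraries (mean ± SD, n = 3 each), and Slc2a3 37.2% ± 2.29 against 76.0% ± 1.91 of Slc2a1 and Slc2a3 together. In macrophages Pfkl made up 50.4% ± 12.2 against 12.9% ± 0.450 of phosphofructokinase (n = 3 and 2), and Ldhb 11.3% ± 4.38 against 0.492% ± 0.0184 of lactate dehydrogenase. In epithelial cells Ldhb made up 18.4% ± 10.7 against 37.8% ± 2.31 of lactate dehydrogenase and Eno1 made up 81.5% ± 6.19 against 48.8% ± 22.7 of enolase, with Eno3 at 71.6 FPKM in WT epithelial 9 and at 21.6 and 9.68 in the other WT libraries. Pfkl made up 39.2% ± 4.34 against 59.0% ± 4.17 of phosphofructokinase in epithelial cells, where Pfkm rose. Groups did not overlap in these 7 contrasts, which were chosen after their values were seen; over all 30 contrasts they did not overlap in 21 and overlapped in 9, among them Hk2 and Eno1 in macrophages and Pfkl and Ldhb in neutrophils. No exact two-sided permutation test over libraries could pass: the smallest p possible was 0.1 with 3 libraries a group, 0.2 with 3 and 2 and 0.333 with 2 and 2, and the lowest adjusted p was 0.231.

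**Figure D5:**
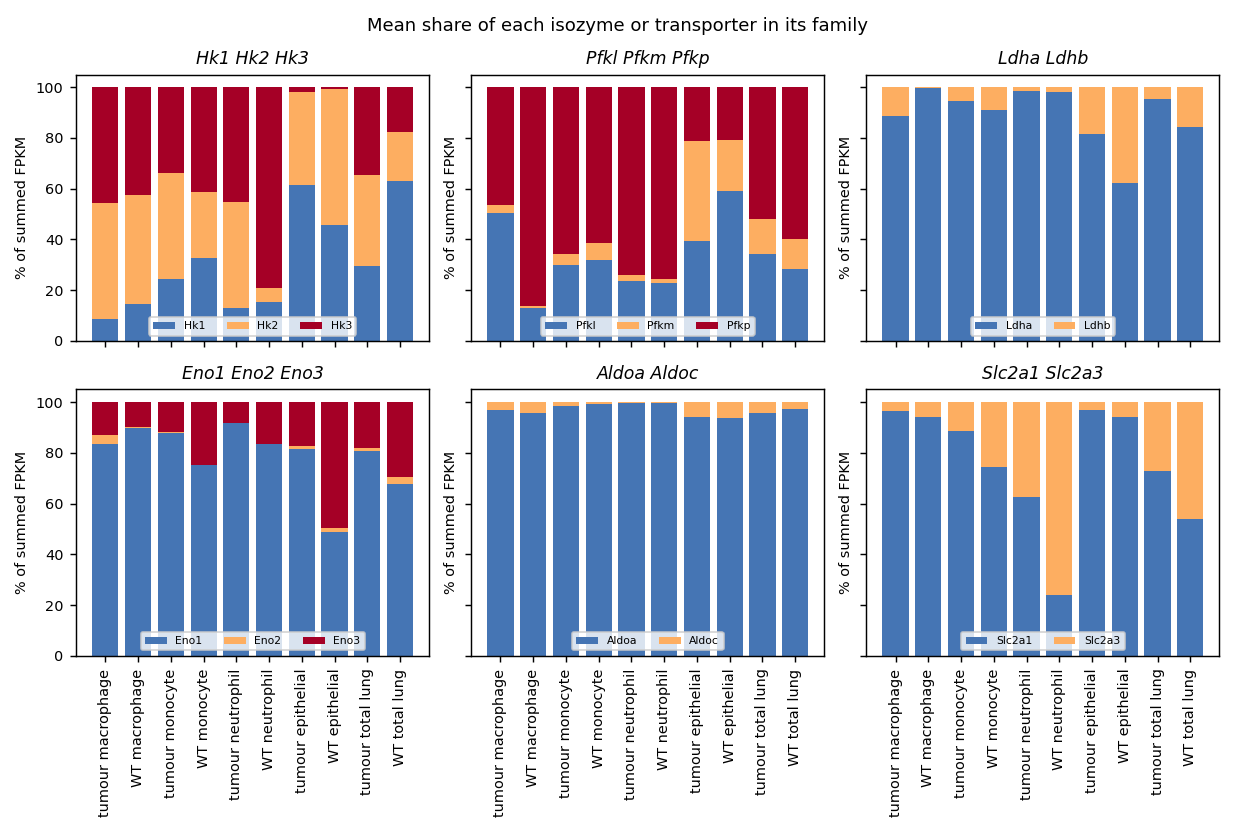
Mean share of each gene in the summed FPKM of its family (percent) for the 10 groups, in 6 panels, each with a bar per group that adds to 100. The Hk2 band is narrow in WT neutrophils (5.56%) and wide in tumour neutrophils (41.6%), and the Slc2a3 band shrinks from 76.0% to 37.2% there.

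Across macrophages, neutrophils, epithelial cells and total lung cells, 3 members were called higher in all 4 comparisons: Tpi1, Eno1 and Egln3. Pfkp and Ankrd37 were called in none. Of all genes tested, 20.3%, 33.3%, 14.9% and 22.1% were called higher in these 4 comparisons, in that order. The share of all genes called higher in all 4, or called in none, is not given here. These counts are therefore not read as a result about the members. Egln3 lost its epithelial call without tumour epithelial 9 or WT epithelial 8 (adjusted p = 0.0709 and 0.0604) and its macrophage call without WT macrophage 1 (0.073). Tpi1 lost its call without each of these 3 libraries as well (0.113, 0.102 and 0.181) and, from 0.0527 to 0.0924, without tumour macrophage 1 or 2, WT macrophage 2, tumour epithelial 11 or WT epithelial 9 or 10. Eno1 lost none when single libraries were left out. The size of the rise differed, with Egln3 at 1.14, 2.96, 1.81 and 3.04, Eno1 at 0.96, 0.72, 1.84 and 1.33 and Tpi1 at 0.37, 0.82, 0.66 and 1.20 on the log2 scale. In monocytes, where no gene was called, the 3 changes were 1.14, 0.74 and 1.04.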

How the data were processed

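The deposited table held FPKM (fragments scaled to transcript length and library size) per gene and library, made by the authors; CASAVA 1.8.2, TopHat2, Cufflinks and Cuffdiff with the mm10 build (GRCm38) are named in the submitters' processing notes, with no further settings. Sequencing depth is unknown beyond the relative depth read from the spacing of low values, and read counts were not used. RNA came from sorted or unsorted lung cells, and libraries were prepared with the TruSeq RNA Sample Prep Kit v2, per the labels' protocols.

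Values were analysed as log2(FPKM + 1), which understates changes of low genes. A gene entered a comparison if 2 or more of its libraries held 1 FPKM or above. Testing used limma 3.58.1 (R 4.3.3, moderated variance with a mean trend) across the whole table, with Benjamini-Hochberg adjustment over all genes tested and a threshold of 0.05. A called gene passed that threshold. Each comparison was fitted on its own groups; differences of tumour effects were interaction terms. The fit was tested on simulated data with independent normal noise and with changes planted only in genes above a low level. Changes of low genes and effects shared by a library were not covered, and the outcome is not given here. Shares within gene families were compared by exact permutation tests (scipy 1.17.1).

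Groups came from the labels for cell type and for source (tumour or WT lung), and library numbers came from the sample titles. Members and lists were chosen with earlier results of these data known. Members are named by role, and from each further pathway list up to 3 called genes with the largest change and a mean of at least 5 FPKM in a group. Alternatives were pseudocounts of 0.1 and 5, no filter or 5 FPKM, upper-quartile scaling, quantile normalization, a fit of all 10 groups, a replicate block and leaving out each library; array weights by group were added after seeing the data, for the interactions. Gene positions came from GENCODE M21 (GRCm38). Protein sequences were not used here. Some genes that this rule selects are not reported here.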

Additional observations from a re-analysis of the deposited data

Results flagged for a closer look

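The tumour effect (tumour minus WT, log2 scale) differed between populations for the members below, by an interaction term in limma at an adjusted p under 0.05. Each value is the effect in one population minus that in neutrophils. Macrophages enter with gates that differ between tumour and WT lung.

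Against neutrophils the effect in macrophages was more positive in uptake and upper glycolysis for Slc2a3 (3.20), Hk3 (2.58), Pfkl (2.11), Slc2a1 (1.97), Pfkfb3 (1.39), Gpi1 (1.33), Pfkm (1.1) and Hk1 (1.07). In lower glycolysis it was more positive for Eno2 (2.53), Eno3 (1.57), Pgam1 (1.48), Pgk1 (1.19) and Pkm (0.78). Among lactate and hypoxia-response genes it was more positive for Ldhb (4.03), Ndrg1 (3.11), Slc16a3 (2.47), Adm (2.0) and Hif1a (1.88). It was more negative for Pdk4 (-4.39), Egln3 (-1.82), Aldoc (-1.48), Hk2 (-0.93), Aldoa (-0.83) and Pfkfb4 (-0.82). The call of Eno3 was lost without tumour macrophage 1 or 2, either WT macrophage library, tumour neutrophil 7 or WT neutrophil 5 (adjusted p from 0.0521 to 0.0863), and that of Aldoa without WT macrophage 2 (0.0809). Pkm fell to 0.044 under quantile normalization (0.831), Egln3 to -0.0051 at a pseudocount of 0.1 (0.995), and Hk2 missed the threshold at a pseudocount of 5 (0.0649) and under quantile normalization (0.118).

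Against neutrophils the effect in epithelial cells was more positive for Ndrg1 (4.39), Slc2a3 (2.51), Slc16a3 (2.04), Pgk1 (1.30), Hk3 (1.22), Gpi1 (1.21), Pkm (1.19), Pfkm (1.16), Eno1 (1.12), Gapdh (1.09), Ankrd37 (1.09), Pgam1 (0.90), Slc16a1 (0.90) and Hk1 (0.82). It was more negative for Hk2 (-3.05), Bnip3 (-1.5), Egln1 (-1.03) and Pdk1 (-0.74). Ankrd37, Hk1 and Pgam1 each missed the threshold when single libraries were left out: Ankrd37 without tumour neutrophil 7, WT neutrophil 5 or 6, tumour epithelial 9 or 11 or WT epithelial 10, Hk1 without tumour neutrophil 7 or 8, WT neutrophil 5 or 6, tumour epithelial 9 or 11 or WT epithelial 9, and Pgam1 without any of those named for Hk1 or WT epithelial 8 (adjusted p from 0.0506 to 0.0769). Hk3 fell to 0.69 under quantile normalization (0.0592), and Pfkm missed the threshold at a pseudocount of 0.1 (0.0843).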

How the results depend on the processing

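Of the calls on members, 16 of 24 in macrophages, 9 of 13 in neutrophils, 2 of 14 in epithelial cells and 16 of 23 in total lung cells passed under every alternative run. Signs turned for Gpi1 in total lung cells under quantile normalization (-0.016) and, in WT neutrophils against WT macrophages, for Ldha (0.11) and Pfkfb4 (0.12) under upper-quartile scaling and Pdk1 (0.16) under quantile normalization; the cause was not tested. Under quantile normalization 6 members were lower in macrophages (2178 genes, against 1788 in the main fit). Under the same setting 7 members were more negative in epithelial cells than in neutrophils (1754 genes, against 1992). Under upper-quartile scaling 8 members were lower in WT neutrophils than in WT macrophages (4435 genes, against 6273). A fit of all 10 groups called 7 members higher in monocytes (540 genes higher and 612 lower) and 5 lower in epithelial cells (2974 and 2369 genes). Without a filter 647 genes were lower in epithelial cells. Leaving out 1 library at a time gave 1 to 6 members lower in macrophages (1105 to 2390 genes higher, 673 to 2130 lower), 0 to 5 higher in monocytes (0 to 161 and 0 to 149 genes), 3 to 11 higher and 0 to 5 lower in epithelial cells (386 to 2420 and 104 to 1795 genes), and 4 to 7 more negative in epithelial cells than in neutrophils. In WT epithelial cells against WT macrophages, it gave 1557 to 2810 genes lower.

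The replicate block used title numbers that shared only 2 pairs per preparation, and deviations of same-numbered libraries correlated at -0.158 to 0.0743, so the numbers were not taken as pairs. With the replicate block 5 members were lower in macrophages (1982 genes) and 3 higher in neutrophils (1904 genes). In epithelial cells 2 members were then higher and 0 lower (307 and 90 genes). In total lung cells 1285 and 1138 genes were higher and lower. No paired analysis was possible in monocytes because the groups share only the number 4. FPKM keep no counts, so no counting interval was given.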
